A study of Mus musculus with 26 samples.

Results

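The 41 genes described here encode nuclear subunits of respiratory complexes II, III and IV, cytochrome c, and proteins that assemble these complexes. They were chosen by gene symbol and role, not by any measured value, though earlier results of these data were known. They came from 2 deposited count tables, one with 9378 genes and the other with 1189. The study immunoprecipitated IMP2 (Igf2bp2), an RNA-binding protein, from mouse brown fat and sequenced the recovered RNA beside total RNA. All mice were male, 10 weeks old, on the C57Bl/6J background, fed normal chow and housed at 4 °C for the last night. Knockout mice (Imp2-/-) and wild-type littermates came from matings of heterozygous parents, and the labels restrict the deletion to no tissue. The table with knockout libraries, here called the knockout table, held 2 libraries in each of 4 groups: wild-type total RNA (16 and 17), wild-type IMP2 antibody IP (21 and 22), knockout total RNA (18 and 19) and IMP2 antibody IP from knockout tissue (23 and 24). In the knockout IP the antibody met tissue without its target. The other table, here called the IgG table, held wild-type libraries alone: 2 of total RNA (15 and 20), 1 IMP2 IP (25) and 1 IP with control IgG (26).

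The IgG table listed 41 of the 41 genes, and 27 of them were in the knockout table. The knockout table held only transcripts with more than 100 counts in each wild-type library, and its genes ended, for the wild-type IP to total RNA ratio over that in knockout, at about -0.30 on the log2 scale, so its 27 genes are a selected part and not a sample of the 41. The 14 genes analysed in the IgG table alone were Sdhc, Sdhd, Sdhaf2, Uqcrc2, Uqcrfs1, Bcs1l, Cox6a2, Cox7c, Cox11, Cox15, Cox18, Surf1, Sco1 and Sco2. Of these, Sdhc, Sdhd, Uqcrc2 and Uqcrfs1 passed 100 counts in all 4 libraries there. Among the 27 listed in both tables, 26 did.

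Complex II (succinate dehydrogenase) feeds electrons from succinate into the quinone pool, complex III passes them from reduced quinone to cytochrome c, and complex IV (cytochrome c oxidase) passes them from cytochrome c to oxygen. Complexes III and IV pump protons across the inner mitochondrial membrane, which complex II does not, and in brown adipocytes the uncoupling protein Ucp1 lets these protons return as heat. Complex II is made of nuclear-encoded subunits alone, whereas complexes III and IV also hold subunits made from mitochondrial DNA, which were not analysed here. Assembly factors attach flavin, iron-sulfur clusters, heme and copper to the subunits.

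Library sums over named genes ran from 780333 to 4916160 counts. Levels are given in CPM, counts scaled by each library's total, which was first adjusted by edgeR's TMM scaling factor. In the knockout table that total covers the listed genes alone, so levels cannot be set side by side across the tables. Gene length was not divided out, so levels are compared between libraries and not between genes. Of 8 brown adipocyte markers, 4 were listed in the knockout table and all 8 in the IgG table. Among the 4 was Ucp1, which stood between 5194 and 10859.7 CPM across the 8 libraries of the knockout table. Igf2bp2 itself was analysed in the IgG table alone, at 14.1 and 6.06 CPM in total RNA, so its mRNA does not check the knockout label. Skeletal muscle markers differed between libraries: the sum over the 8 listed of 14 came to 2701 and 10515 CPM for wild-type total RNA, 1539.7 and 7248 in the wild-type IP, 596 and 2470.3 in knockout total RNA, and 363 and 1384 in the knockout IP. Libraries 17 and 22 had the highest sums. In bulk tissue, fewer cells of a type and less RNA per cell cannot be told apart. No label ties a library to a mouse, so the spread behind the p-values is that between libraries and may be technical.

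Promoter letters, which played no part in choosing the members, were counted next. RefSeq promoter windows (GRCm38.p6), cut to the 250 bases before the start, matched 31 of the 41 genes by symbol, with 32 windows. The ETS-type letters CCGGAAG, read on both strands, stood in 11 of the 32 windows, from 10 genes, (34.4%) and in 6.91% of all 32851 windows of that length. They are the core of sites bound by the ETS family, to which the respiratory gene regulator GABP (NRF-2) belongs. The letters GCATGCGC on either strand, part of the site of nuclear respiratory factor NRF1, stood in 3 of the 32 windows, those of Sdhb, Cycs and Cox6a1 (9.38%, against 2.26% of all windows). TATAAA on either strand stood in 1 member window, that of Cox10 (3.12%, against 12.4%). A match is a description of letters and shows no binding. The windows of Cycs and Cox10 are printed because these 2 genes had the lowest knockout to wild-type ratios in total RNA, which did not pass the test. Cycs spans chr6:50562563-50566569 and Cox10 chr11:63962627-64079472. Each window is on the minus strand, written 5′ to 3′ along the gene, with matched letters in capitals.
Cycs, chr6:50566570-50566819: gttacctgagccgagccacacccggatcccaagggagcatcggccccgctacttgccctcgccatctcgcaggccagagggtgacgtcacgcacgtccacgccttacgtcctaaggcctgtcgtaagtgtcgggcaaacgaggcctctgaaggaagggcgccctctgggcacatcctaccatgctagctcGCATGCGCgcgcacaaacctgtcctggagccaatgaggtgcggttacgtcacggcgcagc
Cox10, chr11:64079473-64079722: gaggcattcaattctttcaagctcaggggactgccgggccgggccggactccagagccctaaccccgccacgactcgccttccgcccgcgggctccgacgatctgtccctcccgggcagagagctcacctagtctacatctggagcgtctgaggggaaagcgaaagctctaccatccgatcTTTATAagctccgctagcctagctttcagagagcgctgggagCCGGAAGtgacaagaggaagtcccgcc
In the window of Cycs the capitals mark the NRF1-type letters, and in that of Cox10 the TATAAA letters, on the opposite strand, and then the ETS-type letters. The 3 kinds of letters do not overlap in these windows.

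The first comparison asked which of these mRNAs were more or less abundant in the IMP2 antibody IP than in total RNA of the same genotype. In wild-type tissue 2 of the 27 members rose in the IP, Cox6b1 and Cox10, and 5 fell: Cox7a2l, Cycs, Cox8b, Sdhaf1 and Cox7a2. In knockout tissue 1 rose, Sdha, and 9 fell: Cox7a2l, Cycs, Uqcrq, Cox8b, Uqcr10, Cox7a2, Uqcrh, Cox7a1 and Cox5b. Cox7a2, Cox7a2l, Cox8b and Cycs fell in both genotypes, and thus also where the antibody had no IMP2 to bind. The test was edgeR's quasi-likelihood test with Benjamini-Hochberg adjustment over the 1189 genes, and a gene was called at an adjusted p below 0.05. Ratios are on the log2 scale, with the standard error after the ± sign, from 2 libraries a group. All groups of the knockout table shared an estimate of the spread, so libraries outside a comparison also bear on its standard errors and p-values. Among all 1189 genes, 9.92% were called higher and 12.4% lower in the wild-type IP, and 10.6% higher and 15.7% lower in the knockout IP. The members' median log2 ratio was -0.16 in wild type and -0.25 in knockout, beside 0.01 and -0.01 for all genes. Without library 22 the wild-type median of the members was -0.10, beside -0.02 for all genes.

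The direction was shared between genotypes for 22 of the 27 members (81.5%), close to the 83.8% of all 1189 genes. In wild type, the 2 IP libraries were both above the 2 total RNA libraries for 8 members and both below for 13, where 32.2% and 33.8% of all genes were so placed. In knockout, 4 members were above and 15 below, beside 32.6% and 33.9% of all genes. The number of wild-type calls, 7, was 1 without library 16, 17 or 22, 3 without library 21 and 4 without library 23 or 24. It was 0 when libraries 17 and 22, the highest in muscle markers, were left out together, which left 3.45% of all genes called. The number of knockout calls, 10, was 2 without library 18 or 24 and 4 without library 23. With 1 library left out, the calls among all genes ran from 93 to 260 in wild type, where all libraries gave 266, and from 135 to 323 in knockout, where they gave 313. The muscle sums of IP and total RNA overlapped in both genotypes, and their part in the calls was not tested. Scaling moved the balance of directions. With upper-quartile scaling, which raised the median of all genes by 0.14 in wild type and 0.17 in knockout, 5 members were called higher and 1 lower in wild type, beside 18.0% and 7.91% of all genes, and 3 higher and 6 lower in knockout, beside 23.0% and 10.9%. The medians of the members were then -0.02 and -0.08, and those of all genes 0.15 and 0.16. With library size as the sole scaling, 2 were higher and 2 lower in wild type, beside 13.2% and 10.0% of all genes, and 3 higher and 6 lower in knockout, beside 20.7% and 12.2%, and the members' medians were -0.10 and -0.12 where those of all genes were 0.07 and 0.12. DESeq2 called 11 members in wild type and 16 in knockout, beside 33.2% and 38.5% of all genes. Each of the called members named above kept its sign in all 18 alternative analyses of its comparison.

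**Figure D1:**
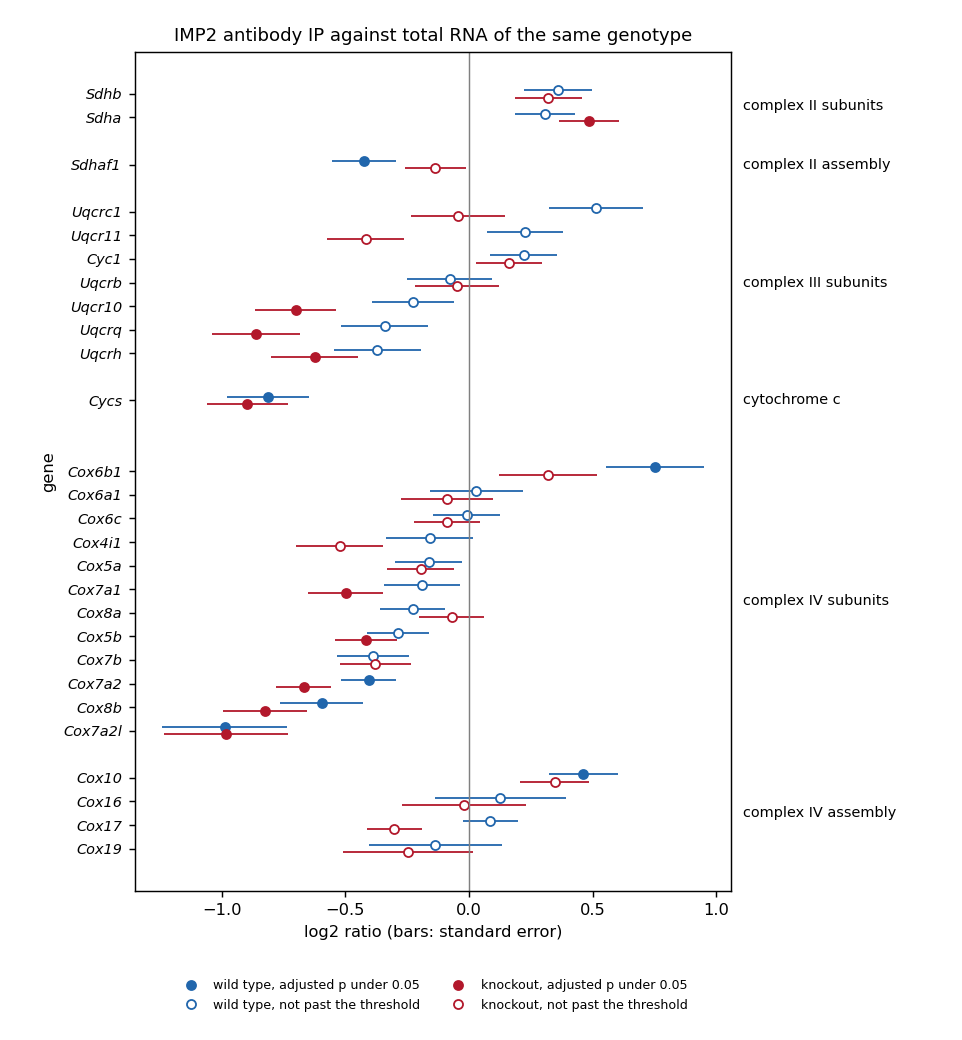
Log2 ratio of IMP2 antibody IP to total RNA (horizontal axis, bars show the standard error) for the 27 members of the knockout table, by role, in wild type (blue) and knockout (red). Filled points passed an adjusted p of 0.05: Cycs, Cox7a2, Cox8b and Cox7a2l are filled at the left in both genotypes, and Sdha and Sdhb lie to the right of 0 in both.

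Both listed complex II subunits had IP ratios above 0 in both genotypes, in all 18 alternative analyses of each. Sdha, the flavoprotein subunit, measured 3447 and 3395 CPM in wild-type total RNA, 4448 and 4009 in the wild-type IP, 3030.5 and 3187 in knockout total RNA and 4203 and 4509 in the knockout IP. Both IP libraries stood above both total RNA libraries in each genotype. The log2 ratio was 0.31 ± 0.12 (edgeR adjusted p = 0.1) in wild type, short of the threshold, and 0.49 ± 0.12 (edgeR adjusted p = 0.0196) in knockout, where it passed; leaving out library 18, 19 or 24 ended that call. Sdhb, the iron-sulfur subunit, measured 1706 and 1508 CPM in wild-type total RNA, 2219.7 and 1905 in the wild-type IP, 1619.9 and 1895 in knockout total RNA and 2058 and 2332 in the knockout IP. Its IP libraries were likewise above total RNA without overlap, at log2 ratios of 0.36 ± 0.14 (edgeR adjusted p = 0.0878) in wild type and 0.32 ± 0.14 (edgeR adjusted p = 0.11) in knockout. Sdhaf1, which helps insert iron-sulfur clusters into Sdhb, fell in the wild-type IP. It measured 304 and 292 CPM in wild-type total RNA, 229 and 215 in the wild-type IP, 281 and 299 in knockout total RNA and 278 and 249.9 in the knockout IP. Its log2 ratio of -0.43 ± 0.13 (edgeR adjusted p = 0.0462) in wild type was called, but it lost the call when any 1 of the 8 libraries was left out. In knockout the ratio was -0.14 ± 0.12 (edgeR adjusted p = 0.444).

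In complex III, 3 of the 7 listed subunits had a wild-type ratio above 0 and 1 of the 7 a knockout ratio above 0. Uqcrc1, a core protein, and Cyc1, the cytochrome c1 subunit, had wild-type ratios of 0.51 ± 0.19 (edgeR adjusted p = 0.0833) and 0.22 ± 0.13 (edgeR adjusted p = 0.252). The small subunits Uqcrh, Uqcrq and Uqcr10 had ratios of -0.37, -0.34 and -0.23 there, and none of the 7 listed subunits was called in wild type. In knockout these 3 fell. Uqcrq, which sits beside cytochrome b, measured 9243 and 8358 CPM in wild-type total RNA, 6141 and 7759 in the wild-type IP, 9333 and 8035 in knockout total RNA and 4927 and 4637 in the knockout IP. In both genotypes both IP libraries were below both total RNA libraries, at -0.34 ± 0.18 (edgeR adjusted p = 0.187) in wild type and -0.86 ± 0.18 (edgeR adjusted p = 0.00937) in knockout. Uqcr10 measured 8660.0 and 8597 CPM in wild-type total RNA, 6828 and 7929 in the wild-type IP, 10195 and 8739.6 in knockout total RNA and 6006 and 5639 in the knockout IP, and its ratio in knockout was -0.70 ± 0.17 (edgeR adjusted p = 0.0155). Uqcrh, the hinge protein that helps cytochrome c dock, measured 7595 and 8798 CPM in wild-type total RNA, 5757 and 6916 in the wild-type IP, 8599.8 and 7591 in knockout total RNA and 5672 and 4840.0 in the knockout IP. Its knockout ratio was -0.62 ± 0.18 (edgeR adjusted p = 0.0311). Uqcr11, a small subunit, measured 4446 and 4198 CPM in wild-type total RNA, 4977 and 5134 in the wild-type IP, 6045 and 4664 in knockout total RNA and 4184 and 3829 in the knockout IP. Its IP libraries were both above total RNA in wild type, at 0.23 ± 0.16 (edgeR adjusted p = 0.306), and both below it in knockout, at -0.42 ± 0.15 (edgeR adjusted p = 0.0766), and neither ratio passed. Uqcrb, another small subunit, was at -0.08 and -0.05, with overlapping groups in both.

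Cycs encodes the somatic form of cytochrome c, the mobile carrier between complexes III and IV. It measured 944 and 1079 CPM in wild-type total RNA, 492 and 661 in the wild-type IP, 586 and 665 in knockout total RNA and 348 and 325 in the knockout IP. The IP libraries were below total RNA of their genotype in every case, and the knockout IP libraries were the lowest of the 8. The log2 ratio was -0.81 ± 0.17 (edgeR adjusted p = 0.0104) in wild type and -0.90 ± 0.16 (edgeR adjusted p = 0.00581) in knockout. The knockout call held in each of 18 alternative analyses. The wild-type call was lost without library 17 and without libraries 17 and 22 together. Cycs has near-identical processed copies in the genome, and how reads shared with such copies were counted is not given in the sources used here, so its level is uncertain.

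Complex IV subunits were mostly lower in the IP. Of the 12 listed, 10 had a negative log2 ratio in wild type, with a median of -0.21, and 11 in knockout, with a median of -0.40; with upper-quartile scaling the medians were -0.07 and -0.23. Called lower in wild type were 3 (Cox7a2l, Cox8b and Cox7a2) and in knockout 5 (the same 3 with Cox7a1 and Cox5b). Cox6b1 rose in the wild-type IP. It is a subunit facing the space between the membranes where cytochrome c binds. It measured 3523 and 4533 CPM in wild-type total RNA, 5702 and 7862 in the wild-type IP, 4469 and 3915 in knockout total RNA and 5520.2 and 4939.7 in the knockout IP. Both wild-type IP libraries were above every other library, and library 22 was the highest. The ratio was 0.75 ± 0.20 (edgeR adjusted p = 0.03) in wild type and 0.32 ± 0.20 (edgeR adjusted p = 0.258) in knockout. Without library 22 the wild-type value was 0.50 and was not called. The call was also lost without library 16 and without library 17.

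Cox7a2l had the lowest ratio of the listed members in both genotypes. It measured 1012 and 763 CPM in wild-type total RNA, 570.0 and 321 in the wild-type IP, 951 and 1123 in knockout total RNA and 499 and 550.3 in the knockout IP. The IP libraries were below total RNA in each genotype, and library 22 was the lowest of the 8. The ratio was -0.99 ± 0.25 (edgeR adjusted p = 0.027) in wild type and -0.98 ± 0.25 (edgeR adjusted p = 0.0208) in knockout. Without library 22 the wild-type value was -0.64, and it was not called. The wild-type call was also lost without library 16, and without libraries 17 and 22 together. Cox5b, a zinc-binding subunit, measured 786 and 823 CPM in wild-type total RNA, 629 and 690.3 in the wild-type IP, 849.9 and 876 in knockout total RNA and 589 and 705 in the knockout IP. Its ratio in knockout, where it fell, was -0.42 ± 0.12 (edgeR adjusted p = 0.0382), and in wild type -0.29 ± 0.13 (edgeR adjusted p = 0.132). The remaining ratios in this group ran in wild type from -0.39 for Cox7b to 0.03 for Cox6a1, and Cox6c, at -0.01 and -0.09, had overlapping groups in both genotypes.

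Several complex IV subunits exist as a ubiquitous form and a form of heart, skeletal muscle and brown fat. Cox8b, the latter form of subunit 8, measured 10647 and 9941 CPM in wild-type total RNA, 6736 and 6889 in the wild-type IP, 13879 and 12028 in knockout total RNA and 7586 and 7039.7 in the knockout IP. All IP libraries were below all total RNA libraries, at -0.60 ± 0.17 (edgeR adjusted p = 0.0371) in wild type and -0.82 ± 0.17 (edgeR adjusted p = 0.00892) in knockout. The wild-type call of Cox8b was lost without library 16, without library 22, and without libraries 17 and 22 together. Cox8a, the ubiquitous form, measured 2032 and 2109 CPM in wild-type total RNA, 1938 and 1599 in the wild-type IP, 1969.9 and 2329 in knockout total RNA and 2025 and 2071 in the knockout IP. Its ratios were -0.23 ± 0.13 (edgeR adjusted p = 0.23) and -0.07 ± 0.13 (edgeR adjusted p = 0.733), and its groups overlapped in knockout. Cox8b counts divided by Cox8a counts gave 5.24 and 4.71 for wild-type total RNA, against 3.48 and 4.31 in the wild-type IP, and 7.05 and 5.16 in knockout total RNA against 3.75 and 3.40 in the knockout IP. The IP libraries were the lower ones in each genotype, without overlap. In the IgG table this ratio was 6.52 and 6.96 in total RNA, 7.86 in the IMP2 IP and 5.53 in the IgG IP, so there the IMP2 IP was the highest library.

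For subunit 7a both forms had ratios below 0. Cox7a1, the form of muscle and brown fat, measured 1758 and 1579.6 CPM in wild-type total RNA, 1352 and 1573 in the wild-type IP, 2195 and 1651 in knockout total RNA and 1416 and 1304 in the knockout IP. Its ratio was -0.19 ± 0.15 (edgeR adjusted p = 0.385) in wild type and -0.50 ± 0.15 (edgeR adjusted p = 0.0419) in knockout, and the knockout call was lost in 13 of 18 alternative analyses. Cox7a2, the ubiquitous form, measured 2922 and 2838 CPM in wild-type total RNA, 2133 and 2217 in the wild-type IP, 3011 and 2989 in knockout total RNA and 2007 and 1767 in the knockout IP. It fell in both genotypes, at -0.40 ± 0.11 (edgeR adjusted p = 0.0336) in wild type and -0.67 ± 0.11 (edgeR adjusted p = 0.00379) in knockout. The knockout call held in each of 18 alternatives. The wild-type call was lost without library 16, without library 22, and without libraries 17 and 22 together. The ratio of Cox7a1 to Cox7a2 counts lay between 0.552 and 0.729 in total RNA and between 0.634 and 0.738 in the IPs of the knockout table. Heart and skeletal muscle also express Cox7a1 and Cox8b, and the part of muscle RNA in their values was not tested. The library of a group with the higher muscle marker sum had the lower Cox7a1 and Cox8b levels in 3 of the 4 groups, and the higher ones in the wild-type IP.

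Of the complex IV assembly factors 4 were listed in the knockout table. Cox10 makes heme O, the precursor of the heme A of complex IV. It measured 381 and 378 CPM in wild-type total RNA, 499 and 546 in the wild-type IP, 281 and 266 in knockout total RNA and 368 and 327 in the knockout IP. Both IP libraries were above total RNA in each genotype, at 0.46 ± 0.14 (edgeR adjusted p = 0.0461) in wild type, where it was called, and 0.35 ± 0.14 (edgeR adjusted p = 0.0935) in knockout, where it was not. The wild-type call was lost when any 1 of the 8 libraries was left out, and the value then stayed above 0. Cox17, the copper chaperone that hands copper on to Sco1 and Cox11, measured 1335 and 1369 CPM in wild-type total RNA, 1483 and 1386 in the wild-type IP, 1343 and 1438 in knockout total RNA and 1216 and 1040.4 in the knockout IP. Its ratio was 0.09 ± 0.11 (edgeR adjusted p = 0.6) in wild type and -0.30 ± 0.11 (edgeR adjusted p = 0.073) in knockout. Cox19, which takes part in copper handling for complex IV, had ratios of -0.14 and -0.25, and Cox16 of 0.13 and -0.02, both with overlapping groups in each genotype.

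**Figure D2:**
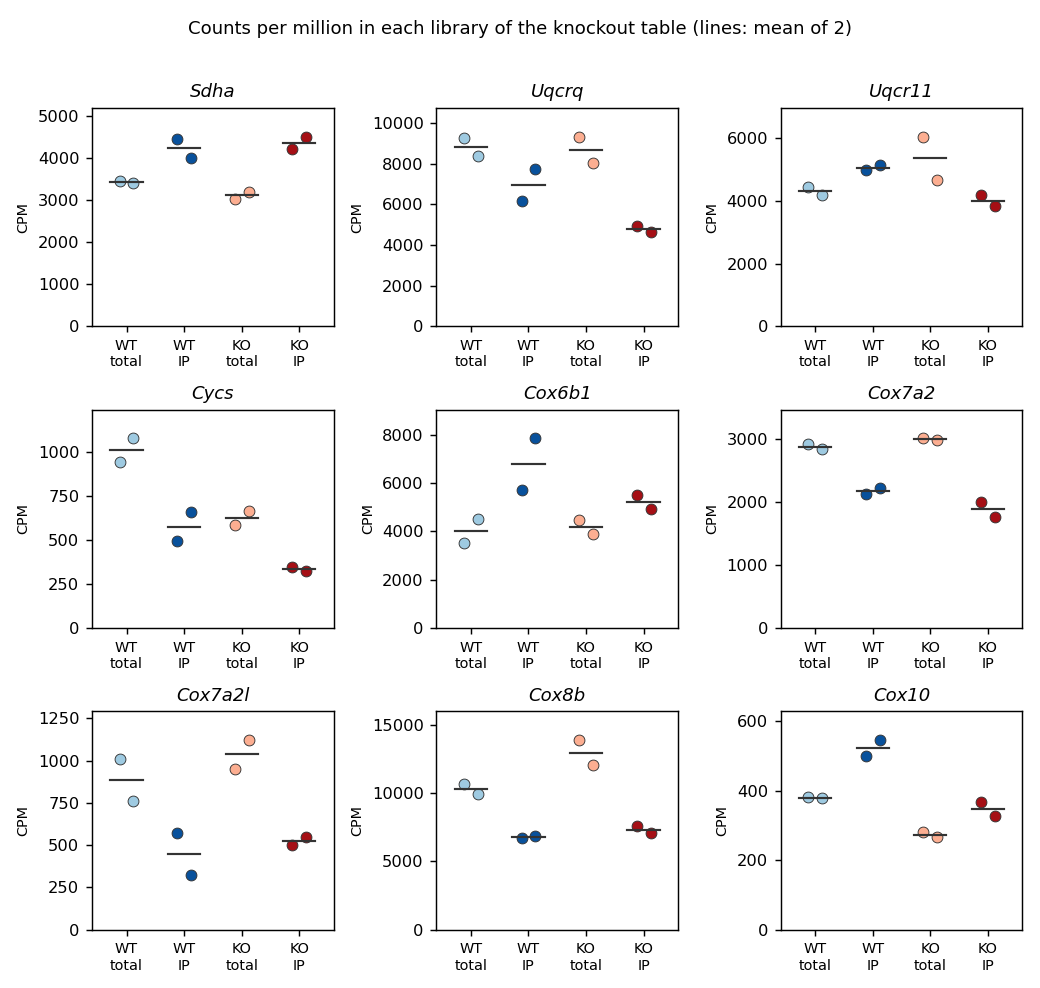
CPM (vertical axis, from 0) of 9 members in each library of the knockout table, with 2 points and their mean per group. Cycs, Cox7a2, Cox7a2l and Cox8b are lower in the IP than in total RNA in both genotypes, Cox6b1 and Cox10 are highest in the wild-type IP, and Uqcr11 lies above total RNA in the wild-type IP and below it in the knockout IP.

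The second comparison asked how much of the recovery depended on IMP2: the wild-type ratio of IP to total RNA over the same ratio in knockout, tested as an interaction term. No member passed, and no gene of the table did (0% of 1189 by edgeR, and 0 members by DESeq2). At an unadjusted p below 0.05 stood 2 members, Uqcr11 and Cox17, and 2.44% of all genes. The value was above 0 for 21 of the 27 members, with a median log2 value of 0.12 beside a median near 0 for all genes; over 17 alternative analyses the count ran from 16 to 22, and the median was 0.05 with library size as the sole scaling, where that of all genes was -0.07, and 0.18 without library 17. The table's genes were listed only down to about -0.30 on this scale, which limits how low a member could lie.

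Of the 7 listed complex III subunits, 6 were above 0 and the median was 0.48, among genes listed only down to about -0.30. Uqcrc2 and Uqcrfs1 were not listed. Uqcr11 stood at 0.64 ± 0.22 (unadjusted p = 0.0175, edgeR adjusted p = 0.999), Uqcrc1 at 0.56 ± 0.27, Uqcrq at 0.52 ± 0.25 and Uqcr10 at 0.48 ± 0.23. Without libraries 17 and 22 the median of these 7 was 0.27, with all 7 above 0. Uqcrh was at 0.25 ± 0.25, Cyc1 at 0.06 ± 0.19 and Uqcrb at -0.03 ± 0.24, values no larger than about 1 standard error. Complex IV subunits had a median of 0.12, from -0.16 for Cox8a to 0.43 for Cox6b1. The isoforms gave 0.23 for Cox8b, 0.31 for Cox7a1, 0.26 for Cox7a2 and 0.12 for Cox6a1, with Cox7a2l within 0.01 of 0. Cox17 stood at 0.39 ± 0.16 (unadjusted p = 0.0365, edgeR adjusted p = 0.999). Cycs, at 0.08 ± 0.23, lay within its standard error of 0. The lowest member was Sdhaf1, at -0.29 ± 0.18, and the complex II subunits stood at -0.18 for Sdha and 0.04 for Sdhb.

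**Figure D3:**
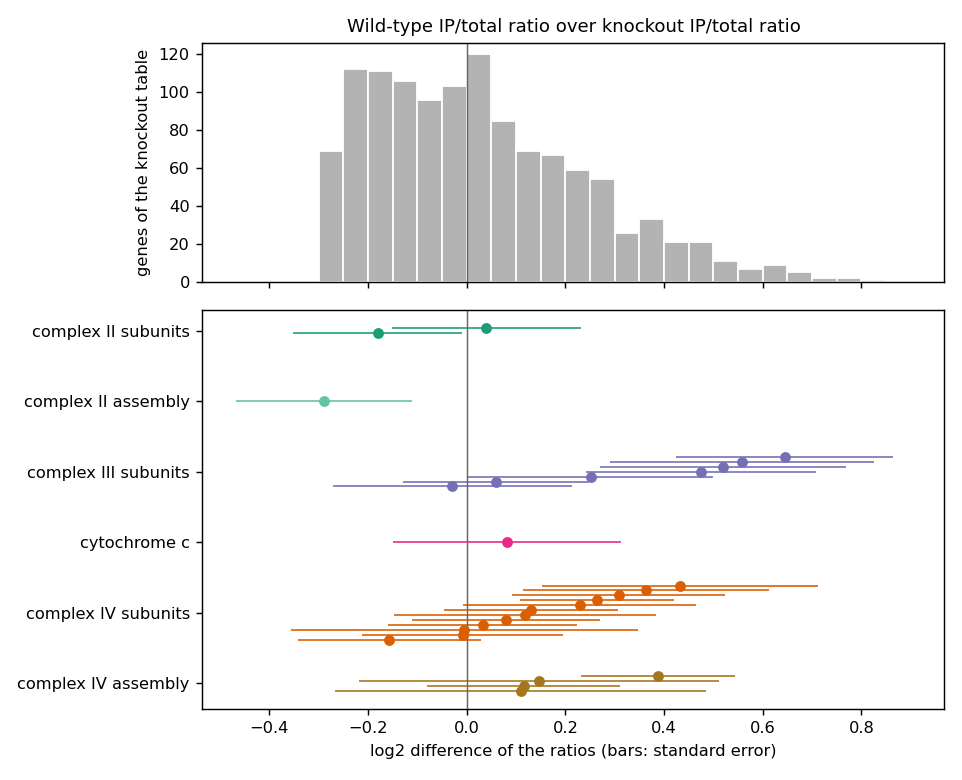
Log2 difference between the wild-type and the knockout IP to total RNA ratio (horizontal axis). The upper panel counts all 1189 genes of the knockout table and ends near -0.30 at the left, and the lower panel shows the 27 members by role with standard errors. A complex III subunit, Uqcr11, lies furthest to the right, at 0.64, and no member passed the test.

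The third comparison set knockout against wild-type total RNA, which asks whether the mRNAs themselves differed. No member passed by edgeR (0% of all genes were called), and 2 had an unadjusted p below 0.05, Cycs and Cox10, beside 11.1% of all genes. Cycs was at 586 and 665 CPM in knockout against 944 and 1079 in wild type, without overlap, at a log2 ratio of -0.69 ± 0.16 (edgeR adjusted p = 0.257). Cox10 was at 281 and 266 CPM against 381 and 378, also without overlap, at -0.47 ± 0.14 (edgeR adjusted p = 0.288). DESeq2 called these 2 lower and no other member, with 1.43% of all genes called lower. At the other end Cox19 stood at 0.59 ± 0.26 (edgeR adjusted p = 0.453), with 429.5 and 541 CPM in knockout and 373 and 272 in wild type, and Cox8b at 0.33 ± 0.17 (edgeR adjusted p = 0.512). The 12 complex IV subunits had a median of 0.15 and 10 of them were above 0, from -0.07 for Cox6c to 0.33 for Cox8b. The other isoforms gave 0.05 for Cox8a, 0.20 for Cox7a1, 0.06 for Cox7a2, 0.22 for Cox7a2l and 0.27 for Cox6a1. Complex III subunits ran from -0.04 for Uqcrb to 0.31 for Uqcr11, and complex II from -0.14 for Sdha to 0.13 for Sdhb. The groups did not overlap for 8 members that were higher and 4 that were lower in knockout, where 21.4% and 21.7% of all genes were so placed.

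Between the 2 IPs themselves, no member passed by edgeR (0% of all genes were called). An unadjusted p below 0.05 was reached by 4 members, all higher in the wild-type IP, beside 17.7% of all genes. These were Cycs at 0.77 ± 0.17 (edgeR adjusted p = 0.129), Cox10 at 0.59 ± 0.14 (edgeR adjusted p = 0.129), Uqcrq at 0.54 ± 0.18 (edgeR adjusted p = 0.183) and Cox17 at 0.35 ± 0.11 (edgeR adjusted p = 0.176). DESeq2 called the first 3, with 5.05% of all genes called higher. Cycs and Cox10 were also the members with the highest wild-type level in total RNA relative to knockout. The knockout to wild-type values of Uqcrq and Cox17 in total RNA were -0.02 and 0.04. All 7 listed complex III subunits were above 0, with a median of 0.34, from 0.01 for Uqcrb to 0.54 for Uqcrq. With library size as the sole scaling 5 were above 0. The knockout table listed no gene below about -0.30 for the wild-type over knockout ratio, so this count covers a selected set. The complex IV subunits ran from -0.23 for Cox7a2l to 0.37 for Cox6b1, with -0.21 for Cox8a, -0.10 for Cox8b, 0.10 for Cox7a1, 0.20 for Cox7a2 and -0.15 for Cox6a1, and the lowest member was Cox19 at -0.48. Without overlap, the wild-type IP was above the knockout IP for 12 members and below it for 4, beside 26.9% and 24.3% of all genes.

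The IgG table asked the same of wild-type tissue with another control, IP with IgG. It had 1 IMP2 IP and 1 IgG library, whose spread was assumed to equal that of the 2 total RNA libraries, and the fit had 1 residual degree of freedom. Against total RNA, 0 of 41 members were called in the IMP2 IP (edgeR called 0.903% of 8966 genes) and 0 in the IgG IP (0.480% of genes higher and 1.52% lower); between the IPs 0 members were called (0.234% of genes), and DESeq2 called no member in the 3 comparisons. An unadjusted p below 0.05 was reached by 1 member in the IMP2 IP (7.91% of genes), 9 in the IgG IP (14.4%) and 3 between them (6.30%). The 9 were all lower than total RNA: 7 complex IV subunits, Uqcr10 and Cycs. The IMP2 IP and IgG ratios share the total RNA libraries, so their values are given side by side alone.

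All 14 complex IV subunits had a negative log2 ratio to total RNA in the IgG IP, with a median of -0.84, except that Cox6b1 and Cox6c were above 0 with library size as the sole scaling and in a fit of both tables. In the IMP2 IP 12 of the 14 were negative, with a median of -0.39. Cox7a1 measured 823 and 990.0 CPM in total RNA, 688 in the IMP2 IP and 357 in the IgG IP. The IgG library was the lowest of the 4, at a log2 ratio of -1.35 ± 0.43 (edgeR adjusted p = 0.0679), while the IMP2 IP was at -0.40 ± 0.41 (edgeR adjusted p = 0.887). Cox7a2l measured 220.2 and 410.1 CPM in total RNA, 266 in the IMP2 IP and 132 in the IgG IP. Its IgG ratio was -1.26 ± 0.42 (edgeR adjusted p = 0.0836) and its IMP2 ratio -0.25. Cox8b measured 5277 and 8363 CPM in total RNA, 4878 in the IMP2 IP and 2972 in the IgG IP, with ratios of -1.20 ± 0.45 (edgeR adjusted p = 0.146) for IgG and -0.48 for IMP2. Cox8a was at -0.90 for IgG and -0.70 for IMP2, and Cox7a2 at -0.99 and -0.27. Cox6a2, the heart and muscle form of subunit 6a, measured 138 and 117 CPM in total RNA, 75.4 in the IMP2 IP and 52.8 in the IgG IP. It had the lowest IMP2 ratio of the members, -0.75 ± 0.44 (edgeR adjusted p = 0.698), beside -1.27 ± 0.43 (edgeR adjusted p = 0.0963) for IgG. Cox6a1, the ubiquitous form, was at -0.38 for IMP2 and -0.77 for IgG. The ratio of Cox6a2 to Cox6a1 counts was 0.0451 and 0.0347 in total RNA, 0.0304 in the IMP2 IP and 0.0280 in the IgG IP. The 14 muscle markers summed to 18052 and 9847 CPM in total RNA, 9655 in the IMP2 IP and 6707 in the IgG IP, and their part in the Cox6a2 values was not tested.

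**Figure D4:**
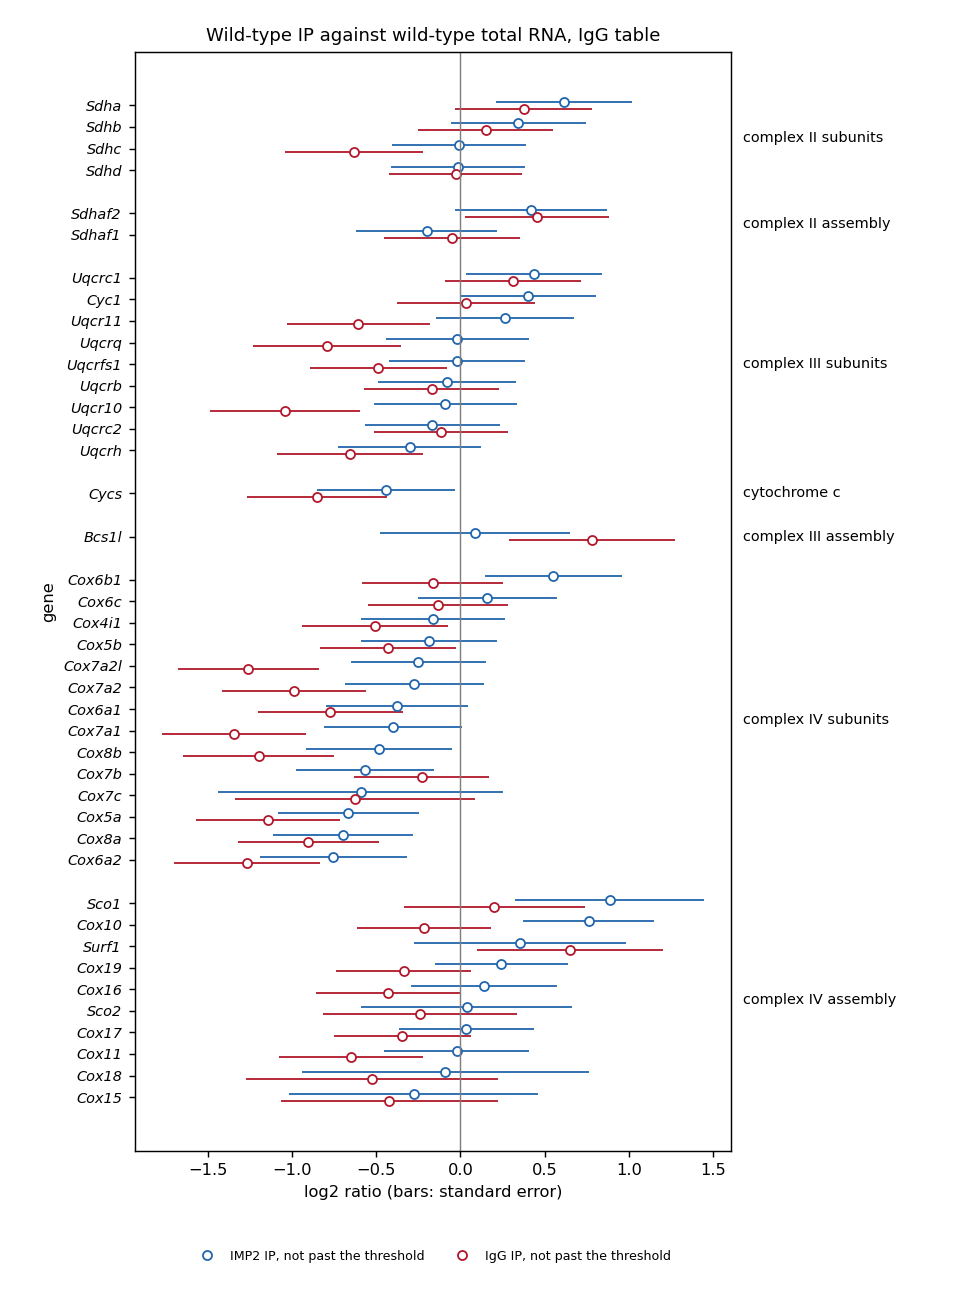
Log2 ratio to wild-type total RNA (horizontal axis, bars show the standard error from the fit) of the IMP2 IP (blue) and the IgG IP (red) for the 41 members of the IgG table, by role. Complex IV subunits lie to the left of 0 in the IgG IP, down to -1.35 for Cox7a1, and no point passed the threshold.

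Set directly against the IgG library, 35 of the 41 members were higher in the IMP2 IP, with a median log2 ratio of 0.38. Of all 8966 genes 4461 were higher, with a median of -0.01. With library size as the sole scaling the members' count was 30 and their median 0.20, beside -0.19 for all genes. In a fit of both tables it was 19 of the 27 members, with a median of 0.19 beside 0.05 for all genes. Complex I subunits were higher for 32 of 36, with a median of 0.46, and ATP synthase subunits for 13 of 17, with a median of 0.33. Medians of the cell type marker lists ran from -0.58 (macrophage and leukocyte, 0 of 2 higher) to 0.72 (blood, 5 of 5 higher). Skeletal muscle markers were higher for 11 of 14, with a median of 0.57, and brown adipocyte markers for 4 of 8, with a median of -0.06. The 3 members with an unadjusted p below 0.05 were Cox7a2l at 1.01 ± 0.46 (edgeR adjusted p = 0.705), Cox10 at 0.98 ± 0.46 (edgeR adjusted p = 0.729) and Cox7a1 at 0.95 ± 0.47 (edgeR adjusted p = 0.781). As a ratio of levels in these 2 libraries, with an exact interval that covers counting error only, Cox7a2l was 2.01 (95% interval 1.75 to 2.31), Cox10 1.97 (95% interval 1.74 to 2.22), Cox7a1 1.93 (95% interval 1.77 to 2.1) and Uqcr10 1.94 (95% interval 1.88 to 2). The interval lay above 1 for 29 members and below 1 for 2. Those 2 were Cox7b at 0.791 (95% interval 0.716 to 0.872) and Bcs1l at 0.619 (95% interval 0.386 to 0.954). Intervals were computed for the members alone, so no share of all genes stands beside these counts. Bcs1l, which inserts the iron-sulfur subunit Uqcrfs1 into complex III, measured 12 and 23.9 CPM in total RNA, 19.6 in the IMP2 IP and 31.8 in the IgG IP, from 25 counts in the IMP2 IP and 130 in the IgG IP. It was the lowest member, at -0.69. Within complex II the ratios ran from -0.15 for Sdhaf1 to 0.63 for Sdhc, a membrane anchor.

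Cox10 was the sole member with an unadjusted p below 0.05 for the IMP2 IP against total RNA in the IgG table. It measured 214 and 187 CPM in total RNA, 339 in the IMP2 IP and 172 in the IgG IP, and the IMP2 library was above the other 3, at 0.76 ± 0.39 (edgeR adjusted p = 0.628), while the IgG ratio was -0.22 ± 0.40 (edgeR adjusted p = 0.847). Cox6b1, the other member called higher in the wild-type IP of the knockout table, measured 2235 and 2342 CPM in total RNA, 3352 in the IMP2 IP and 2041 in the IgG IP. Its ratios were 0.55 ± 0.41 (edgeR adjusted p = 0.803) for IMP2 and -0.16 ± 0.42 (edgeR adjusted p = 0.9) for IgG. The wild-type IP to total RNA ratios of the 2 tables come from different libraries, and 24 of the 27 shared members (88.9%) had the same sign in both, beside 77.4% of the 1189 genes. With both tables in 1 fit and a term for the table, 9 of the 27 members were called in the wild-type IMP2 IP, 3 higher (Cox10, Cox6b1 and Sdha) and 6 lower (Cox7a2, Cox7a2l, Cox7b, Cox8b, Cycs and Sdhaf1), beside 14.0% and 14.5% of all 1189 genes. In that fit 8 of 27 were called lower in the IgG IP: Cox5a, Cox7a1, Cox7a2, Cox7a2l, Cox8b, Cycs, Uqcr10 and Uqcrq, beside 11.9% of all genes.

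Complex III subunits and the smaller groups gave these values in the IgG table. Cycs measured 794 and 598 CPM in total RNA, 512 in the IMP2 IP and 386 in the IgG IP, with ratios to total RNA of -0.44 ± 0.41 (edgeR adjusted p = 0.866) for IMP2 and -0.85 ± 0.41 (edgeR adjusted p = 0.321) for IgG. Both IP libraries were below both total RNA libraries. Uqcr10 measured 4879 and 6373 CPM in total RNA, 5290.4 in the IMP2 IP and 2733 in the IgG IP. Its IgG ratio of -1.04 was the lowest of complex III, while its IMP2 library lay between the 2 total RNA libraries. Uqcrc1 had the highest complex III ratio in both IPs, 0.44 for IMP2 and 0.31 for IgG, and Uqcrh the lowest for IMP2, -0.30. The levels of Uqcrc1 in the total RNA libraries, 746 and 1779.8 CPM, differed from each other by more than either IP differed from their mean. Uqcrc2, the other core protein, and Uqcrfs1, the Rieske iron-sulfur subunit, were within the range of total RNA in the IMP2 IP, at -0.17 and -0.02. Sdha measured 2153 and 1621 CPM in total RNA, 2889.5 in the IMP2 IP and 2446 in the IgG IP, and both IPs were above both total RNA libraries, at 0.62 ± 0.41 (edgeR adjusted p = 0.766) for IMP2 and 0.37 ± 0.41 (edgeR adjusted p = 0.723) for IgG. Sdhc and Sdhd, the membrane anchors, had IMP2 ratios of -0.01 and -0.02. Sdhaf2, which attaches flavin to Sdha, measured 38 and 38.3 CPM in total RNA, 51.1 in the IMP2 IP and 52.3 in the IgG IP.

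Assembly factors of complex IV were mostly low in the IgG table, and depth set what could be seen. Sco1, a copper carrier for the copper site of the subunit that receives electrons, had the highest IMP2 ratio of all 41 members, 0.89 ± 0.56 (edgeR adjusted p = 0.746), from 18 and 46 counts in total RNA, 36 in the IMP2 IP and 72 in the IgG IP. Its paralog Sco2 was at 0.04, from 20 counts in the IMP2 IP. Surf1, a factor for insertion of heme A, was at 0.35 ± 0.63 (edgeR adjusted p = 0.948), also from 20 counts. Cox15, the heme A synthase, and Cox18, which inserts a mitochondrially made subunit into the membrane, had 11 and 8 counts in the IMP2 IP, and their ratios of -0.28 and -0.09 had standard errors of 0.74 and 0.85. At this depth no difference from total RNA was detectable for these 2. The subunit Cox7c had 7 counts in the IMP2 IP and 22 in the IgG IP, and near-identical copies may take its reads, so its level is uncertain. Cox11, the copper carrier for the oxygen-binding site, measured 76 and 80.4 CPM in total RNA, 77 in the IMP2 IP and 49.8 in the IgG IP. It was at -0.02 for IMP2 and -0.65 for IgG.

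The genes of the neighbouring complexes gave a measure of how far these values belong to respiratory genes at large; their differences from the members were not tested. Of the complex I subunits 32 of 36 were tested in the knockout table: the wild-type IP had 3 called higher and 6 called lower, and the knockout IP 4 and 11, with medians of -0.07 and -0.36. Of the ATP synthase subunits 11 of 19 were tested: none was higher and 5 were lower in wild type, and 8 were lower in knockout, with medians of -0.33 and -0.60. A further list of other complex II to IV genes had 5 of 42 in the knockout table, with 0 called in wild type and 1, the mitochondrial RNA-binding protein gene Lrpprc, higher in knockout at 0.78. In the IMP2-dependent comparison the medians were 0.21 for complex I and 0.15 for ATP synthase, beside 0.12 for the 27 members, and no gene was called. In the IgG IP the medians were -0.51 for the 36 complex I subunits and -0.59 for 17 ATP synthase subunits, beside -0.43 for the 41 members.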

How the data were processed

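RNA from wild-type and Imp2-/- brown fat, as total RNA or after immunoprecipitation, was sequenced in 12 libraries. Liver (14 samples) was not analysed here. The authors deposited whole-number read counts per transcript in 2 tables, and the submitters' processing notes name TopHat2 2.0.8, Cufflinks 2.1.1 and mm10. The counting tool, the annotation and any use of strand were not given in the sources used here. Rows were reduced to 1 per symbol, that with the highest summed count (Cox7a2l and Cox18 had more than 1 row), and rows without a usable name were left out. The rows left out for lack of a name were 3 in the knockout table and 22 in the IgG table. They held 8.65% to 29.2% of each library's counts (knockout table, highest in library 17) or 7.39% to 15.8% (IgG table). In R 4.3.3, edgeR 4.0.16 fitted each table with TMM scaling, its default filter and the quasi-likelihood test, on 1189 and 8966 genes with 4 and 1 residual degrees of freedom, and all listed members passed the filter. The biological coefficient of variation was 15.3% and 25.1%. P-values were adjusted by Benjamini-Hochberg over all genes of a table, with a threshold of 0.05. The procedure was tested on simulated counts. Alternatives were DESeq2 1.42.0, other scalings and filters, summed rows, both tables together, the compared groups alone and each library left out; leaving out libraries 17 and 22 together was added after seeing the data. Named members were those past the threshold, the ends of each role and the isoforms of Cox6a, Cox7a and Cox8; other members were described for completeness after their values were seen. The members and lists were chosen with earlier results of these data known. Exact 95% intervals of single libraries used scipy 1.17.1 and cover counting error only.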

Additional observations from a re-analysis of the deposited data

How the results depend on the processing

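No called result reversed under any alternative that was run. The wild-type IP to total RNA comparison called 7 members in the main analysis, 4 with library size as the sole scaling, 4 with the compared groups alone, 11 with DESeq2 and 0 without libraries 17 and 22. Leaving out 1 library gave 1 to 5. The knockout IP to total RNA comparison called 10, with 16 by DESeq2 and 2 to 9 with 1 library left out. Knockout against wild-type total RNA called 0, with 2 by DESeq2, and wild-type against knockout IP called 0, with 3 by DESeq2. With 1 library left out, each of these gave 0 and 0, and the IMP2-dependent comparison 0. A fit of both tables pooled their wild-type IMP2 IP libraries and their wild-type total RNA libraries. That pooled comparison called 9 members, where the knockout table alone gave 7 and the IgG table alone 0. The IgG IP against the pooled total RNA had 8 called members in place of 0, with 27 members and more libraries in the fit. The cause of the other shifts was not tested. Leaving out a total RNA library of the IgG table was not run, since it leaves no residual degree of freedom. No paired analysis was run, because the labels give every library a number of its own and state no pairing. Whether an IP and a total RNA library shared tissue is not stated there, and the tests treated them as separate. Depth limited Cox7c, Cox15, Cox18, Surf1, Sco1, Sco2 and Bcs1l, and having 1 or 2 libraries a group limited the rest.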
